A study of Drosophila melanogaster with 3 samples.

Results

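The genes described here encode subunits of Mediator and of the general transcription factor TFIID in Drosophila melanogaster. They were all protein-coding genes whose Ensembl gene name begins with MED or Taf followed by a digit. The rule found 40 genes of the 13945 protein-coding genes on the 6 chromosome arms, of which 25 are Mediator genes and 15 are Taf genes. The question was whether, where and how strongly the zinc finger protein CG2678 was enriched at their promoters. CG2678, also named kipferl, is known from the ovary, where it acts with the heterochromatin protein Rhino at piRNA source loci.

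The assay was chromatin immunoprecipitation with sequencing (ChIP-seq). All samples belonged to 1 group and came from the same transgenic fly line, which stably carries CG2678 with GFP at its C-terminus. Whole embryos of mixed sex, 0 to 24 h old, were used in 3 biological replicates, and the tagged protein was precipitated with an antibody against GFP. Whole embryos mix many tissues and ages, and no untagged or untreated group was compared. The control sample that the labels point to was not analysed here.

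Each replicate had a list of 30000 peaks, as had the 3 replicates pooled. The 9459 pooled peaks that passed the authors' threshold on the irreproducible discovery rate (IDR, a measure of how far peak ranks hold between replicates) are called IDR peaks here. A promoter summit is the point of highest signal in a peak where it lies no more than 500 bp from an annotated transcription start site (TSS) of the gene. Signal values are the authors' own, on a scale that is not stated, and ran from 236.7 to 19817 in the IDR list. They served here to rank peaks inside each list, with rank 1 the strongest. Read depth is not given in the lists, so the counting error of a peak is unknown and the 3 replicates are the only measure of spread. No test between conditions was possible with 1 group, and no p-value is given.

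Mediator is a large assembly of proteins that bridges transcription factors bound at enhancers and RNA polymerase II at the promoter. Its subunits form a head, a middle and a tail, held together by MED14, and a kinase module that can detach. TFIID contains the TATA-binding protein and the Taf proteins, and it recognises core promoters and starts the assembly of the polymerase there. Most Taf proteins pair through histone folds, and several of them also belong to the coactivator SAGA. The rule followed names, so it took in Taf12L, a testis paralogue of Taf12, and it left out TFIID and Mediator genes with other names, which are described further on.

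CG2678-GFP had an IDR promoter summit at 10 of the 40 genes, a share near the background of 22.5% of all protein-coding genes. Of the Mediator genes 6 of 25 had such a summit (24.0%), and of the Taf genes 4 of 15 (26.7%). The Mediator genes were MED17, MED27, MED30, MED31, MED4 and MED8, and the Taf genes were Taf2, Taf5, Taf11 and Taf13. A further 5 genes, MED6, Taf9, Taf10, Taf10b and Taf12, had a promoter summit in the pooled list but not among the IDR peaks. The pooled list thus reached 15 of the 40 genes (37.5%), with 8 of the 15 Taf genes and 7 of the 25 Mediator genes, against 34.1% of all protein-coding genes. Another 6 genes had a promoter summit in a replicate list only, and 19 had none in any list.

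In the single replicates the count followed the background. When each replicate was limited to its 9459 strongest peaks, 15, 13 and 12 of the genes had a promoter summit in replicates 1, 2 and 3, a mean of 13.3 ± 1.53 (SD, n = 3). All protein-coding genes gave 29.5%, 23.2% and 21.7% in the same lists, and the 40 genes gave 37.5%, 32.5% and 30.0%. With all 30000 peaks of each replicate the counts were 21, 16 and 13 genes, against 43.9%, 37.0% and 33.5% of all protein-coding genes. Each of the 10 IDR promoter summits was matched within 100 bp by one of the strongest peaks of every replicate. Of the 3141 protein-coding genes with an IDR promoter summit, 2203 had one matched in this way. These 2203 are 15.8% of all 13945 protein-coding genes, a base on which the matched Mediator and Taf genes are 10 of 40.

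The IDR promoter summits at these genes were mostly high in the list. The 10 summits had a median rank of 1147 and a median signal of 1765, against 2948 and 818.1 for the strongest IDR promoter summit of all 3141 genes with one. Of the 10 summits 9 were among the 4730 strongest IDR peaks, as were 67.1% of those of the 3141 genes. These values describe the genes and were not tested.

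**Figure D1:**
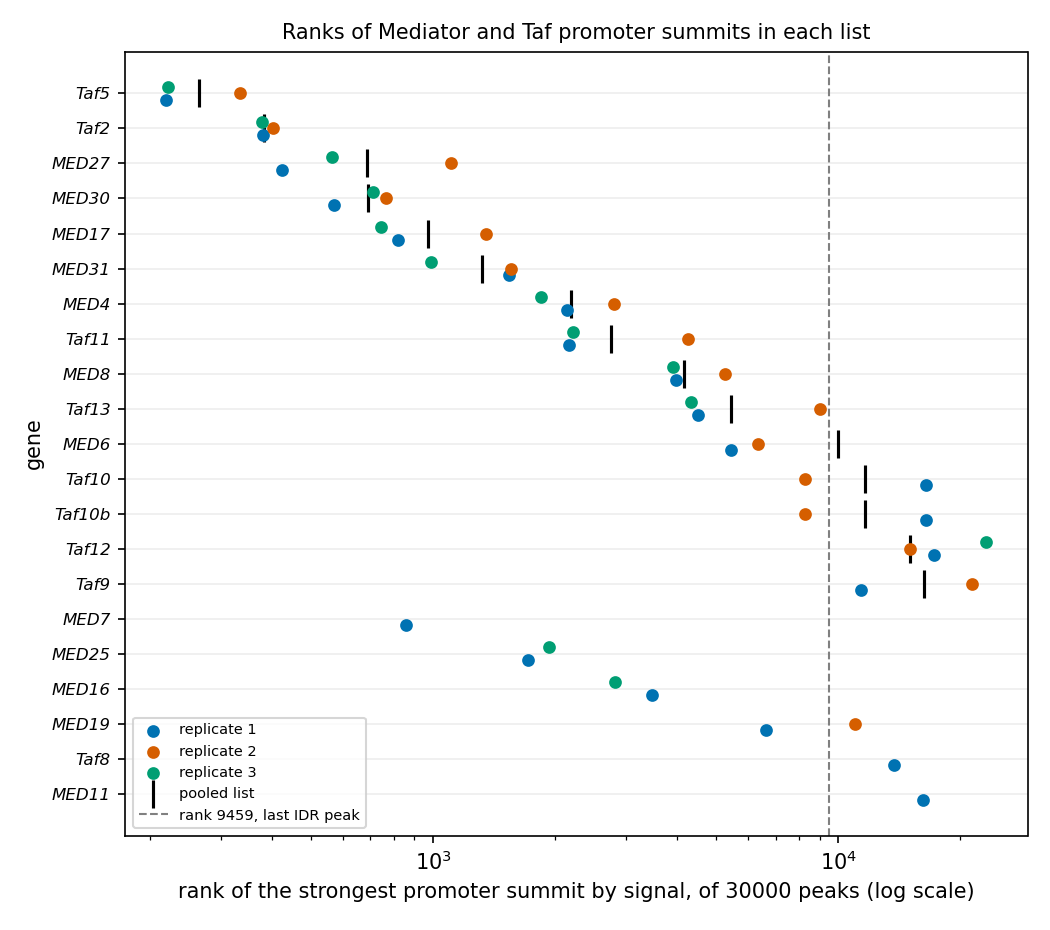
Rank by signal of the strongest promoter summit of each of the 21 Mediator and Taf genes with one in any 30000-peak list (log scale; points, the 3 replicates; black bars, the pooled list; dashed line, rank 9459, the last IDR peak). The 10 genes from Taf5 to Taf13 lie left of the dashed line in every list, and MED7, MED25 and MED16 rank high in replicate 1 or in replicates 1 and 3 but have no pooled summit.

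The strongest summit was at Taf5, which encodes a WD40-repeat scaffold subunit of TFIID. Its peak (dm6, chromosome 2R, 10879591 to 10880065) had a signal of 4129 and an IDR rank of 264, and it ranked 220, 334 and 222 in replicates 1, 2 and 3. Taf2, whose product binds core promoter DNA together with Taf1, followed with a peak on 3L at 9888611 to 9889190, a signal of 3429 and a rank of 382, and with ranks of 380, 402 and 378. Both ranked within the first 500 peaks of every replicate. The other 2 Taf genes encode partners, since Taf11 and Taf13 form a histone-fold pair within TFIID, and their promoter peaks were much weaker. Taf11 (2L, 9763156 to 9763579) ranked 2755, with 2169, 4252 and 2218 in the replicates, and Taf13 (2L, 20093847 to 20094038) ranked 5447, with 4504, 8989 and 4328.

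Among the Mediator genes the strongest summits were at MED27 and MED30, which encode subunits placed in mammalian structures where head and tail meet. MED27 (3R, 5654749 to 5655232) had a signal of 2464 and a rank of 687, with 423, 1106 and 562 in the replicates. MED30 (3L, 654001 to 654476) had a signal of 2460 and a rank of 690, with 569, 767 and 712. MED28, of the same region of the complex, had no promoter summit in any list. Of the 7 head genes MED17 and MED8 had an IDR promoter summit. MED17, a central head subunit, had a peak on 3R at 18188610 to 18189156 with a rank of 973, and it ranked 821, 1351 and 745. MED8 (2R, 20326850 to 20327074) ranked 4160, with 3968, 5242 and 3918, and had a second, weaker IDR summit in the window.

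Of the 9 middle genes MED31 and MED4 had an IDR promoter summit. The peak at MED31 (3R, 4641519 to 4642050) ranked 1321, with 1540, 1556 and 991 in the replicates, and MED31 shares its start site with slx1, so the 2 genes cannot be told apart. The peak at MED4 (3L, 7250502 to 7250906) ranked 2185, with 2139, 2791 and 1843. None of the 5 tail genes (MED15, MED16, MED23, MED24 and MED25) had an IDR promoter summit, nor had the gene of the backbone subunit MED14. With 1 to 11 genes in a role, shares per role were not compared.

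The order of the 10 genes was nearly the same in each replicate. Across these genes, which were selected on the pooled replicates, Spearman's rho between ranks was 0.988 for replicates 1 and 2, 1.000 for 1 and 3 and 0.988 for 2 and 3 (n = 10 genes). The weakest of the 3 ranks was in replicate 2 for all 10 genes. Of the 2756 protein-coding genes with an IDR promoter summit and a promoter summit in every replicate list, 46.5% had their weakest rank in replicate 2, 28.4% in replicate 1 and 25.1% in replicate 3.

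All 10 summits lay upstream of the gene, in a narrow band from 116 bp (Taf11) to 256 bp (Taf2). The median was 171.5 bp upstream, against 153 bp for all 3141 genes with an IDR promoter summit. All 10 lay between 100 and 300 bp upstream, as did 50.2% of those of the 3141 genes, and 83.3% of the latter were upstream at any distance. Replicates placed the summits close together, with the 3 positions spanning 6 bp at Taf2, 9 bp at MED4 and at most 26 bp at the others except MED8 (51 bp) and Taf13 (92 bp), the 2 weakest.

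**Figure D2:**
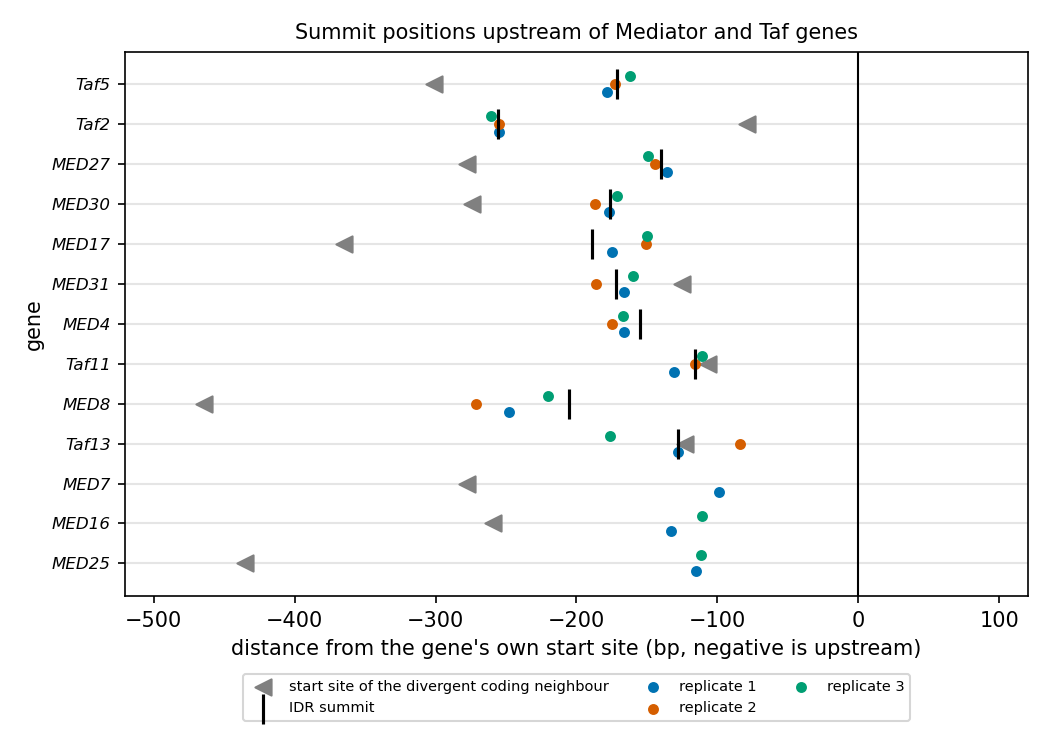
Position of promoter summits relative to the gene's own start site (vertical line at 0; bp, negative is upstream) for the 10 genes with an IDR promoter summit, in order of rank, and for MED7, MED16 and MED25. Black bars are IDR summits, points the replicates and grey triangles the start of the nearest upstream coding gene on the other strand, and all black bars lie from 116 to 256 bp upstream.

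The 500-bp limit did not decide most of these calls. Just inside it the farthest strongest summit was that of Taf2, at 256 bp. Just outside it was the IDR peak nearest to MED15, a tail subunit that activators bind, which lay 535 bp upstream with a signal of 3112 and a rank of 452, and 278 bp from the start of its neighbour CG4297. The next was 678 bp upstream of Taf8, with a rank of 7279, and 22 bp from the start of Mvb12. For the remaining genes the nearest IDR summit was 1442 bp (Taf12) or more away, and the one nearest to Taf12, ranked 477, was 132 bp from the start of CG18476. No IDR summit lay inside the span of any of the 40 genes beyond the promoter window.

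Most of these promoters are shared with a gene running the other way. Of the 40 genes 26 (65.0%) had another coding gene starting upstream on the other strand within 500 bp, against 27.3% of all protein-coding genes. Of the 10 genes with an IDR promoter summit 9 had such a neighbour, against 42.2% of the 3141 genes. In 8 of the 10, the start of another coding gene was nearer to the summit than the member's own, which held for 21.9% of the 3141 genes and for 45.3% of the 1326 among them with a neighbour within 500 bp. By the pooled summits only MED4 and MED8 had the nearest coding start, and the replicates differed from this at some genes. At MED17, 365 bp from the start of CG12321, the summits lay 175, 151 and 150 bp upstream, nearer to MED17 in every replicate. At MED8, 464 bp from the start of CG8929, those of replicates 1 and 2 lay 248 and 271 bp upstream, nearer to CG8929. At MED27 the pooled summit was 140 bp from its own start and 138 bp from that of elm. The nearest neighbours included Pex6 at Taf5 (130 bp from the summit), CalpB, a calpain protease gene, at Taf2 (165 bp), elm at MED27 (138 bp), Rev1, a DNA polymerase gene, at MED30 (98 bp), CG12321 at MED17 (176 bp) and CG9775 at MED31 (47 bp). The summits of Taf11 and Taf13 lay 9 bp and 5 bp from the starts of und and nesd. MED4 had no divergent coding neighbour in the window, but the start of the antisense RNA gene asRNA:CR43470 was 42 bp from its summit. Which of the paired genes a summit belongs to cannot be told apart.

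At shared promoters the place of the summit relative to the neighbour's start differed with the spacing of the starts. The spacing classes were drawn after the values had been seen. In the 5 genes whose neighbour started from 200 to under 500 bp away (MED17, MED27, MED30, MED8 and Taf5), the summit lay between both starts, as it did in 88.6% of the 954 protein-coding genes with that spacing and an IDR promoter summit. In the 4 genes with a spacing under 200 bp (MED31, Taf2, Taf11 and Taf13), the summit lay past the neighbour's start, which held for 49.2% of the 372 such genes. The class limits largely fix this outcome at the Mediator and Taf genes, since all 10 summits lay from 116 to 256 bp upstream. At Taf13, whose neighbour starts 123 bp away, the pooled summit was 128 bp upstream. In replicate 2 it was 84 bp upstream, between both starts.

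The share of genes with a summit varied with the spacing in the genome at large and among the 40 genes. With a spacing from 200 to under 500 bp, 41.4% of protein-coding genes had an IDR promoter summit, and 5 of 11 of the Mediator and Taf genes did. Below 100 bp the values were 25.5% and 1 of 10, and from 100 to under 200 bp they were 23.7% and 3 of 5. At 500 bp or more, or with no such neighbour, they were 17.9% and 1 of 14. Among the 10 genes with the closest neighbours, MED10, MED18, MED20, MED23, MED28, MED6, Taf10, Taf10b and Taf12 had no IDR promoter summit and Taf2 had one.

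**Figure D3:**
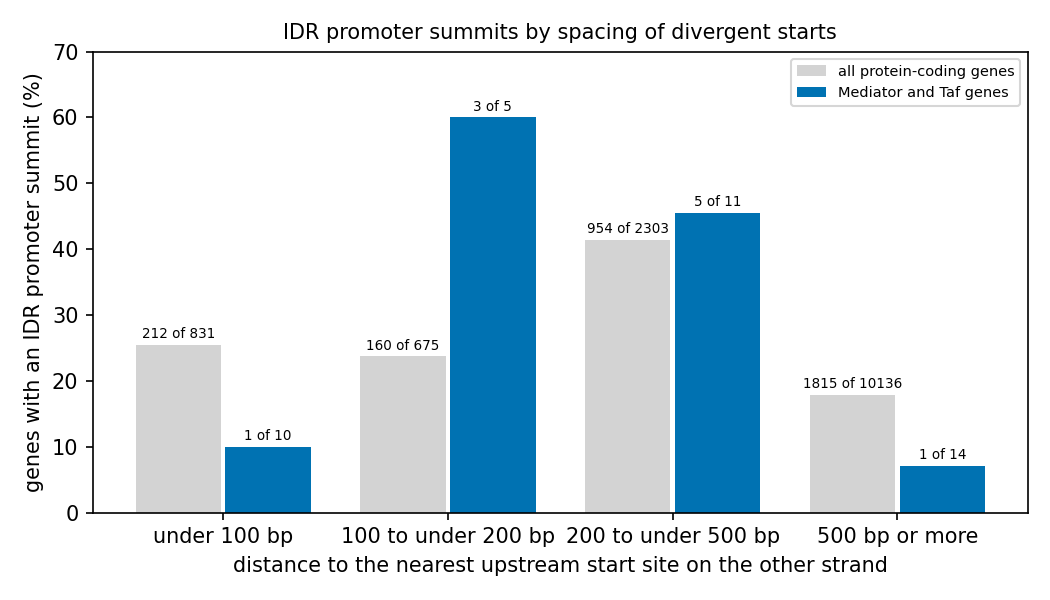
Percentage of genes with an IDR promoter summit by the distance to the nearest upstream coding start on the other strand, for all protein-coding genes (grey) and for the 40 Mediator and Taf genes (blue), with gene numbers above the bars. The share of all protein-coding genes was highest, at 41.4%, with a spacing from 200 to under 500 bp, where 5 of the 11 Mediator and Taf genes had a summit; the class from 100 to under 200 bp holds only 5 of them.

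The summits sat in DNA that is poor in G and C. Within 50 bp of the summit the GC content ran from 12.9% at Taf2 to 31.7% at MED4, with a median of 27.2%, while windows of the same length centred 300 bp to either side had a median of 46.5%. All 10 summits were below their flanks, as were 74.3% of the 2983 IDR summits at promoters of any protein-coding gene. The 2983 include every IDR summit at a promoter, also weaker second ones, while the 10 are the strongest of each gene. The median fall from flank to summit was 22.5 percentage points, against 10.9 over those 2983 summits, which had a median of 31.7% at the summit. With only the strongest IDR promoter summit of each of the 3141 genes, the median at the summit was 29.7%. With the summits of the single replicates the mean fall at the 10 genes was 24.4, 22.4 and 24.6 percentage points (23.8 ± 1.18, SD, n = 3). Of the bases in these windows a median of 46.0% was soft-masked as repeat in the RefSeq sequence, against 21.8% at the 2983 summits, and the part of read mapping in this was not tested. The greatest fall was at Taf11, from 58.9% to 17.8%, where an unbroken run of 30 bases of A or T lay in the window.

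**Figure D4:**
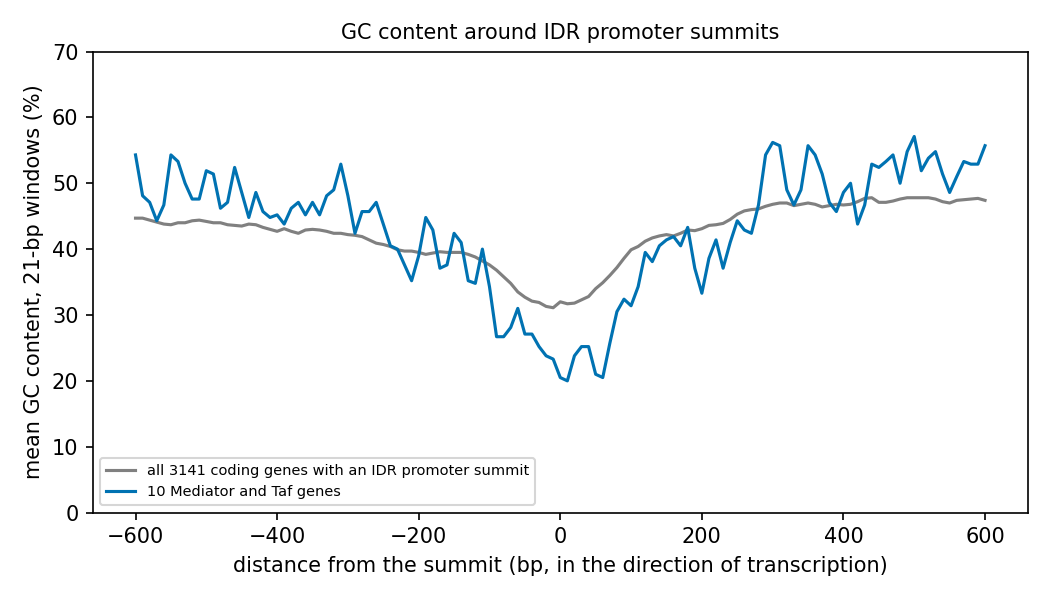
Mean GC content in 21-bp windows (y axis, %) against the distance from the strongest IDR promoter summit, in the direction of the gene (x axis, bp), for the 10 Mediator and Taf genes (blue) and all 3141 protein-coding genes with such a summit (grey). The blue line falls to 20.0% at 10 bp past the summit, where the grey line is at 31.7%.

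The sequences show this base composition. Those below are on the strand of the named gene, read 5′ to 3′, from the RefSeq copy of the dm6 assembly, within 50 bp of the summit and without annotated untranslated sequence of any gene, so that some are shorter. Capitals mark runs of at least 8 bases made of A and T alone. They are the 5 strongest IDR promoter summits of Mediator genes that can be shown under this limit, chosen by rank: MED27 (chr3R:5654949-5655049, plus strand), MED30 (chr3L:654215-654315, minus strand), MED17 (chr3R:18188833-18188933, plus strand), MED31 (chr3R:4641741-4641795, plus strand) and MED4 (chr3L:7250632-7250717, minus strand). The stretch at MED31 has no such run, and MED4 has the highest GC content of the 10 summits. The window at Taf2 lies wholly in an untranslated exon of CalpB and is not shown.
MED27: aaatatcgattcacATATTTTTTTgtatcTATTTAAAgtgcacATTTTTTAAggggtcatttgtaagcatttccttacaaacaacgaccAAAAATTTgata
MED30: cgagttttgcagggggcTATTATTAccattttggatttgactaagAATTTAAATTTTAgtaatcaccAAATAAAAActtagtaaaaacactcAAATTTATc
MED17: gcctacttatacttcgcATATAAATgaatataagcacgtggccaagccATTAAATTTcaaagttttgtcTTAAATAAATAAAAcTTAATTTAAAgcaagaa
MED31: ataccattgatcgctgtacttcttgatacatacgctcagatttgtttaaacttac
MED4: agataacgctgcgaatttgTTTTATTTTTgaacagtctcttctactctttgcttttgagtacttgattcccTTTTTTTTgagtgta

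At Taf11 the printed stretch (chr2L:9763328-9763368, minus strand) is the part of the window on the Taf11 side of the start of und, and it holds the TATA-box word TATAAA.
Taf11: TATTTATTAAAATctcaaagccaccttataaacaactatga

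Known promoter words were searched within 50 bp of the summit on either strand, and a match is a description of letters only. TATAAA was present at 4 of the 10 summits (Taf5, Taf2, MED17 and Taf11), against 24.4% of the 2983 IDR promoter summits. The 2983 are not limited to the strongest summit of each gene, as the 10 are. The other words searched were TATCGATA, bound by Dref (1.84% of the 2983 summits), GGTCACAC, bound by M1BP (0.972%), GAGAG, bound by the GAGA factor (299 of the 2983), the initiator word TCAGTT (6.40%) and the Zelda word CAGGTA (1.31%). None of these 5 words was in any of the 10 windows.

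The summits of the 5 genes that reached only the pooled list looked different. They lay within 50 bp of the start in all 5, at 28 bp upstream in Taf9, 25 bp upstream in Taf10, 20 bp upstream in Taf10b, 16 bp downstream in Taf12 and 50 bp downstream of the nearest of the starts of MED6. None of the 10 IDR summits lay so close. Over all protein-coding genes 25.8% of the 1615 genes with a pooled but no IDR promoter summit had it within 50 bp, against 12.2% of the 3141 genes with an IDR promoter summit. The GC content at the summits of these 5 genes, of which Taf10 and Taf10b share a summit, ran from 38.6% to 51.5%. It did not overlap that of the 10 IDR summits. Over all protein-coding genes the medians were 43.6% for the 1615 genes and 29.7% for the 3141 genes. The ranges overlapped widely there, from 16.8% to 78.2% for the 1615 genes and from 6.93% to 63.4% for the 3141 genes. Thus GC content did not separate the groups over all protein-coding genes. Rank chose these groups, and GC content and position were not used in the choice. Peak width differed as well. The pooled peak at each of the 5 genes was 436 bp wide with its summit in the middle, and 436 bp was also the median width of the pooled list. The 10 IDR peaks were from 192 to 580 bp wide. How far peak width bears on the position and GC content of the summits was not tested.

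Taf10 and Taf10b encode paralogous histone-fold subunits, start 45 bp apart in opposite directions and share 1 pooled summit, which ranked 11606. It ranked 16450 in replicate 1 and 8289 in replicate 2 and was not in the list of replicate 3. The pooled summit of Taf12 ranked 15004, with 17231, 15024 and 23205 in the replicates, and that of Taf9 ranked 16228, with 11406 and 21319 in replicates 1 and 2 and none in replicate 3. MED6, a head subunit, had the pooled summit nearest to the IDR limit, at rank 9986, but MED6 has 5 annotated starts. The summits of replicates 1 and 2, with ranks of 5440 and 6339, were at a different start from the pooled one. Apart from Taf12 none of these genes had a promoter summit in replicate 3. The stretch between the starts of Taf10b and Taf10 (chr2L:2767846-2767889, plus strand) is printed as a contrast and was chosen after its values were seen. It holds no A and T run of 8 bases, but the full window of 101 bp, the rest of which is not shown, has a longest run of 8 bases and holds TATAAA.
Taf10: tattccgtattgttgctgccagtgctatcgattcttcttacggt

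A few Mediator genes had strong promoter peaks in single replicates that the pooled list does not hold. MED7, a middle subunit, had a peak in replicate 1 with its summit 99 bp upstream and a rank of 859, and no promoter summit in any other list. MED25, a tail subunit, ranked 1720 in replicate 1 and 1933 in replicate 3, with summits 115 and 112 bp upstream. MED16, a further tail subunit, ranked 3477 and 2816 in the same replicates, with summits 133 and 111 bp upstream. Neither had a promoter summit in replicate 2 or in the pooled list. Of these 5 summits only that of MED16 in replicate 1 lay within the band of the 10 IDR summits, and the others lay nearer to the start than any of the 10. That band is of pooled positions. In the replicate lists some of the 10 genes came as near, with Taf11 at 111 bp in replicate 3 and Taf13 at 84 bp in replicate 2. Their GC content was within the range of the 10 IDR summits, with 22.8% at MED7, 26.7% at MED25 in both replicates, and 24.8% and 28.7% at MED16. All 3 genes had a divergent neighbour 259 to 435 bp away.

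Such peaks were uncommon but not peculiar to these genes. Of the 1000 strongest peaks of replicate 1, 20 (2.00%) had no pooled summit within 500 bp. Of the 9459 strongest, 1072 (11.3%) had none in replicate 1, 332 (3.51%) in replicate 2 and 607 (6.42%) in replicate 3. Over all protein-coding genes 1165 (8.35%) had a promoter summit among the strongest peaks of at least 1 replicate and none in the pooled list, as had 4 of the 40 genes (MED7, MED16, MED19 and MED25), a share near the background. In the narrower class of MED16 and MED25, 139 protein-coding genes (0.997%) had a promoter summit among the strongest peaks of replicates 1 and 3 and none in the pooled list. MED19 likewise had no pooled summit, with a summit 445 bp upstream in replicate 1, ranked 6648, and a separate summit 89 bp downstream in replicate 2, ranked 10976. Replicate-list summits at Taf8 (rank 13717) and MED11 (rank 16139) were found in replicate 1 alone. GC content was 27.7% at Taf8 and 57.4% at MED11, and 27.7% and 50.5% at the MED19 summits of replicates 1 and 2. Why the pooled list lacks these peaks was not tested. The sequences at MED25 (chr3R:20008782-20008882, plus strand) and MED7 (chr3R:10761081-10761181, minus strand) in replicate 1 were chosen after their values were seen.
MED25: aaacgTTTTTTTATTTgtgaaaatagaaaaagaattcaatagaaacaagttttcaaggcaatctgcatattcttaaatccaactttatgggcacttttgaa
MED7: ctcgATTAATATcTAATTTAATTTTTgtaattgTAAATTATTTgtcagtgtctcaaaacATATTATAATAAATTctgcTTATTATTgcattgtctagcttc

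The genes without a promoter summit in any list came from every role but the TFIID scaffold, whose only gene is Taf5. They were MED1, MED9, MED10, MED21 and MED26 of the middle, MED18, MED20 and MED22 of the head, MED28, MED14, the tail genes MED15, MED23 and MED24, and Taf1, Taf3, Taf4, Taf6, Taf7 and Taf12L. Taf1, the largest subunit, and Taf4, which many activators contact, were thus without one in all 5 lists. The 2 genes on chromosome 4, MED26 and Taf3, were among them, on a chromosome where 3.75% of protein-coding genes had an IDR promoter summit. None of the 4 genes on the X chromosome (MED18, MED22, Taf8 and Taf9) had an IDR promoter summit, against 23.9% of protein-coding genes there. The lists do not show that the protein was absent at these genes, since they hold a fixed number of peaks.

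A low GC content upstream of the gene was also found without a summit. From 250 to 100 bp upstream of the first start, the 10 genes with an IDR promoter summit ran from 18.5% to 37.1% with a median of 25.5%. The other 30 genes ran from 14.6% to 60.9% with a median of 36.1%, so the groups overlapped. This stretch largely covers the band in which the GC-poor summits of the 10 genes lay, so their lower median is partly built in by its choice. Over all protein-coding genes the medians were 32.5% with and 35.8% without an IDR promoter summit. MED14 had the lowest value of the 40 genes (14.6%), and Taf6 (20.5%), MED15 (22.5%), MED24 (25.2%), MED1 (25.8%) and Taf1 (26.5%) were likewise low, with no promoter summit in any list. Among the genes with no promoter summit in any list, the highest values were at Taf7 (56.3%), MED20 (55.6%) and MED28 (49.7%).

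Genes of the same machinery with other names gave a mixed picture. Of the 5 Mediator genes that the naming rule missed, skd, which encodes the kinase-module subunit Med13, had an IDR promoter summit 347 bp upstream with a rank of 2129 and ranks of 1753, 2533 and 2254 in the replicates. The gene of Med29, ix, had a weak one, ranked 9320, which was not found in replicate 3, and kto, CycC and Cdk8 of the kinase module had none. Tbp, the gene of the TATA-binding protein, had none, and neither had the testis genes can, mia, sa and nht, which are paralogues of Taf genes. Of 21 general transcription factor genes 1 had an IDR promoter summit (4.76%). This was Ssl1, a TFIIH subunit gene, with a rank of 27 and ranks of 30, 29 and 21, ahead of all 40 Mediator and Taf genes.

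Of 12 RNA polymerase II subunit genes 3 had an IDR promoter summit, namely Polr2B, the second largest subunit, with a rank of 564, Polr2H (1682) and Polr2F (3458). Of 18 SAGA genes outside the Taf family 6 had one (33.3%). They were Gcn5, the histone acetyltransferase (rank 515), wda (735), Sgf11 (1904), e(y)2 (2352), Ada3 (2472) and Atxn7 (5665). Gcn5 ranked 584, 557 and 422 in the replicates. Against 22.5% of all protein-coding genes, none of these shares was tested, and the lists are small.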

How the data were processed

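Peak lists were analysed as the authors deposited them, on dm6 per the labels. Per the deposited descriptions, peaks of each replicate, and of the 3 replicates together, were called against a control alignment, and IDR thresholding was applied to the 3 replicate lists and the pooled list. Names of the aligner and the peak caller were not given in the sources used here. Per the labels, chromatin was sonicated to 200 to 800 bp. Each peak has a signal value, as deposited by the authors, which gave the ranks. The −log10 q-value that the authors deposited was equal in all IDR peaks and gave no ranks. The pooled list held each of the 9459 IDR peaks. A peak with more than 1 summit has a line for each. The lists hold no read counts, so depth is unknown, and p-values were not computed.

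Summits (peak start plus offset, 1-based) were assigned to every protein-coding gene of Ensembl release 115 (BDGP 6.54) with a TSS within 500 bp, and the strongest was kept for each gene and list. The sequence was RefSeq's copy of the same assembly, whose arms held all peaks. A divergent neighbour is the nearest coding TSS on the other strand upstream of the gene. GC content was taken within 50 bp of the summit and at 300 bp to either side. All 40 genes are named. The members, the gene lists and the classes were chosen with earlier results of these data known. One SAGA symbol that belongs to another complex was dropped, older symbols were replaced by current ones and ix was added after the annotation was read. The scoring was tested on simulated data. Python 3.11.15, numpy 2.4.6, pandas 2.3.3, scipy 1.17.1 and matplotlib 3.10.9 were used. Alternatives covered the window, the TSS, the strength of the peaks, the match distance, the windows for GC content and leaving out each replicate.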

Additional observations from a re-analysis of the deposited data

How the results depend on the processing

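Under settings given further on, the count of 10 genes with an IDR promoter summit fell to 2 or 8, and any pooled summit gave 15. It ran from 9 to 12 under the alternatives of the next sentence, while the share of all protein-coding genes moved from 22.5%. It was 9 with a window of 250 bp (17.3% of all protein-coding genes), 12 with 1000 bp (26.6%), 10 with the first TSS only (19.9%), 9 with the 4730 strongest IDR peaks (15.1%), 9 with peaks that overlap the TSS (15.5%), 10 with the strongest summit of each interval (22.4%) and 10 with peaks matched in each replicate (15.8%). The counts for Mediator (6) and Taf genes (4) stayed within 1.5 times under these settings. Without each replicate in turn the counts ranged from 10 to 10, from 6 to 6 and from 4 to 4, against 16.8% to 18.3% of all protein-coding genes. This setting could not lower the counts, since each of the 10 summits was matched in every replicate. The deposited IDR list, made from all 3 replicates, was kept, so it is no check on the IDR calls. When only genes with the nearest coding TSS were counted, 2 genes were left, 2 of Mediator and 0 of the Taf family, against 2529 of all protein-coding genes (18.1%). That count used the pooled summits, and at some genes the replicates placed another start nearest. Any pooled summit, an alternative chosen after seeing the data, gave 8 Taf genes, against 34.1% of all protein-coding genes. Leaving out members with another coding TSS within 100 bp, also chosen then, gave 8 genes in all. The value for all protein-coding genes there was 3139 (22.5%), against 3141 without this limit, so it gives no like background. The match distance of 50 or 200 bp gave 9 or 10 genes (13.3% or 16.5%). The mean of 13.3 genes over replicates was 16.7 with all 30000 peaks and ranged from 12.5 to 14.0 without each replicate. The mean GC difference between summit and flanks at the 10 genes was -24.2 percentage points, -28.4 with 25 bp and -20.0 with 100 bp either side, and -27.4 with flanks 500 bp away. No paired analysis was possible because there was 1 group. Depth is unknown, so a missing peak at a gene may be below what the lists can show.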
